A study of Mus musculus with 3 samples.

Results

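Nuclei of neural progenitors were compared with nuclei of young neurons in the E13.5 library of a single-nucleus ATAC-seq study of whole mouse embryos. ATAC-seq measures open chromatin: the transposase Tn5 cuts accessible DNA and attaches sequencing adapters, so that each sequenced fragment marks a pair of cuts. The progenitors were the 50 nuclei of cluster 9 and the neurons were the 87 nuclei of cluster 0 and the 76 nuclei of cluster 6, by the cluster numbers that the authors deposited. These 213 nuclei were part of 970 nuclei in the E13.5 library and of 1879 in the series. All embryos were wild-type C57BL/6JRj mice at E12.5, E13.5 or E15.5, none was treated, and each stage gave a single library from frozen embryo sections, whose nuclei were stained with 7-AAD and sorted. The sections hold every tissue they cut through, so a nucleus cannot be traced to a region of the nervous system, and the number of embryos behind a library is not known here.

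The deposited fragments of each side were summed, which gave 3924334 unique fragments for the progenitors and 12356846 for the neurons, with a median of 71843 and 67821 per nucleus. Values are given as fragments that overlap a promoter, a gene or a distal bin per 1000000 unique fragments of that side (CPM). A ratio is the progenitor CPM divided by the neuron CPM unless the other order is stated, and its 95% interval covers counting error only. There was 1 library, and the clusters were made from these same nuclei, so that no test was made and each difference is a description. Nucleosome-free fragments made up 66.3% of the progenitor fragments and 65.2% of the neuron fragments. By the tallies in the authors' table, 25.6% of the progenitor fragments and 22.5% of the neuron fragments lay at transcription start sites (TSSs), so that the progenitor side had a higher signal at promoters in general. In the E13.5 library 32 nuclei shared at least 10% of their fragments with another barcode, and 1 of them was in cluster 0. A single barcode sequence occurred in more than 1 library, and it belonged to none of these clusters. Doublets were not removed here. Direction was looked up in the E12.5 library (11 progenitor and 16 neuron nuclei) and in the E15.5 library (20 and 222 nuclei), whose nuclei carry the same set of cluster numbers. These 2 libraries had fewer progenitor fragments in total, 1285439 at E12.5 and 1482285 at E15.5. Of the E15.5 nuclei of these clusters, 5 shared fragments with another barcode, 4 in cluster 0 and 1 in cluster 9.

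Neural progenitors line the ventricles and divide, and they are held in that state by SoxB1 transcription factors and by Notch signalling: ligands of the Delta and Jagged families on a neighbouring cell activate Notch receptors, whose cleaved inner part joins Rbpj in the nucleus and switches on repressors of the Hes and Hey families. Proneural factors such as Neurog2 oppose these repressors and drive cells out of the cycle. Newborn neurons then take up factors such as Neurod and Myt1l, and genes of the cytoskeleton, the synapse and ion channels.

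Sequences of some of the leading distal bins, by the interval bound of the ratio nearest to 1, are shown first. For 3 bins of the progenitor side and 2 of the neuron side, the 300 bases with most fragment ends are given, on the plus strand of GRCm38, the sequence of the mm10 build used for the files. The promoter of Hes1, a Notch target, is shown by the 250 bases before its start site, which hold no annotated exon. It was chosen after its values were seen. Capitals mark matches on either strand to CAGCTG and CAGATG (E-boxes of proneural and Neurod factors), ACAAAG and ACAATG (Sox factors), TAATTA (homeodomain factors), GTTGCCA (the core of one arm of the Rfx site), TTGGCA (one arm of the NFI site) and GTGGGAA (the Rbpj core).
Inhbb bin, higher in progenitors, chr1:119255541-119255840: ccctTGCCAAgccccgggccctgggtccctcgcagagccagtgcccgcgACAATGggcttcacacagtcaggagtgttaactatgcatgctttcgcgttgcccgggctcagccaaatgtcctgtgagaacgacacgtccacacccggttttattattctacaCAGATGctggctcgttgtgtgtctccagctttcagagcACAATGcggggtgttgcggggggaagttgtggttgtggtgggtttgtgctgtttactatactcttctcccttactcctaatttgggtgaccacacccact
Vangl2 bin, higher in progenitors, chr1:171980001-171980300: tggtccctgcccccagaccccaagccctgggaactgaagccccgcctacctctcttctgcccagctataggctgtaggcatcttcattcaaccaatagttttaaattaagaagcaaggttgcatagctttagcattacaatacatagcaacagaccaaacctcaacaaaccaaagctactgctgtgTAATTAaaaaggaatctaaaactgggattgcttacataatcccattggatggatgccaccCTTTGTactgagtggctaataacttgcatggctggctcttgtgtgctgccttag
Pdcd4 bin, higher in progenitors, chr19:53834061-53834360: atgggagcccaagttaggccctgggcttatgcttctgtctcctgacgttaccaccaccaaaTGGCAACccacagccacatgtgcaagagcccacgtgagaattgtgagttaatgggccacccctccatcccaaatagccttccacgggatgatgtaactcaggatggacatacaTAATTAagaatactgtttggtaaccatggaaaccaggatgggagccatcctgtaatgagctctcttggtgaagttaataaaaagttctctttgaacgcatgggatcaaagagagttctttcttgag
T2 bin, higher in neurons, chr17:8368391-8368690: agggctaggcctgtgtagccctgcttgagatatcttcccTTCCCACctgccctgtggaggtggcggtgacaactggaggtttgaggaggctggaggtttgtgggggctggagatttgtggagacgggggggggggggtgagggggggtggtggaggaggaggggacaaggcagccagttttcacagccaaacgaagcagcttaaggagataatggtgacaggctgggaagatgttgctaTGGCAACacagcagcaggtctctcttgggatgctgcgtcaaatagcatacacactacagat
Chd5 bin, higher in neurons, chr4:152350081-152350380: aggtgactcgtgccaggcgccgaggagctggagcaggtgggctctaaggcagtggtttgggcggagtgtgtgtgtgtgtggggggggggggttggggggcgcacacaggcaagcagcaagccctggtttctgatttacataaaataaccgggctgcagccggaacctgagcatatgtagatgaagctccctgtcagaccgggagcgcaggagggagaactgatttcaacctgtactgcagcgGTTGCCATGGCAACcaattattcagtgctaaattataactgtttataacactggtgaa
Hes1 promoter, chr16:30065090-30065339: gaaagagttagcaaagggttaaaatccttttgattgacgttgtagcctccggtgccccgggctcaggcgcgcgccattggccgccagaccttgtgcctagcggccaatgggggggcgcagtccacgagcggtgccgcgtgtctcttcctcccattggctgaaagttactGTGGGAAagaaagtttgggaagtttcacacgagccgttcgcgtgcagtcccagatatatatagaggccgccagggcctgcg
Both neuron windows held the Rfx word, as did the Pdcd4 window of the progenitor side, and in the Chd5 window it stood back to back with its reverse complement. Each bin is named by its nearest protein-coding TSS, which is a label and not a target. A match is a description of letters, not a bound site, and the shares of all windows that hold each word are given with the bins.

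The names progenitors and neurons are used here for the deposited cluster numbers. Markers of both were looked up first. They were read from the same nuclei that made the clusters, so the values describe the names and do not check them. The promoters of Sox2 and Hes5, factors of undifferentiated neural cells, and of Nes, the intermediate filament of neural stem cells, were all past 2-fold on the progenitor side, where 6.11% of all promoters tested were. Sox2 had 18.6 CPM in progenitors, 9.23 in cluster 0 and 8.22 in cluster 6, a ratio of 2.13 (95% interval 1.56 to 2.89). Hes5 had 26 CPM against 5.32 and 6.54, a ratio of 4.40 (95% interval 3.23 to 6.03). Nes had 14.5 CPM against 5.79 and 5.53, a ratio of 2.56 (95% interval 1.78 to 3.69). Both neuron clusters lay below the progenitors for all 3 genes.

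The neuronal markers separated the sides less clearly. The promoter of Tubb3, the neuronal beta-tubulin, had 8.92 CPM in progenitors, 15.2 in cluster 0 and 19.8 in cluster 6, a ratio of 0.513 (95% interval 0.348 to 0.735) that stopped just short of 2-fold. The promoter of Elavl3, a neuronal RNA-binding protein, was alike on both sides at 8.92 and 8.98 CPM, a ratio of 0.993 (95% interval 0.659 to 1.46). Stmn2, a microtubule regulator of growing axons, had 2.29 and 3.80 CPM at its promoter, under the mean of 5 CPM asked for below. Counted over the gene body with 2 kb upstream, the ratios were 0.572 for Tubb3, 0.723 for Elavl3 and 0.707 for Stmn2, all below 1. Summed promoters of markers of other cell types were close on both sides at E13.5, except those of muscle. In each list but that of oligodendrocyte precursors 1 or 2 markers had no fragment at the promoter in progenitors, and 1 erythroid marker had none in neurons. The summed promoters of 6 endothelial markers had 7.64 CPM in progenitors and 7.69 in neurons, those of 6 white blood cell markers 3.57 and 3.56, and those of 7 epithelial markers 7.64 and 7.77. The sums of 8 mesenchyme markers were 23.2 and 21.0 CPM, of 7 erythroid markers 18.3 and 17.1, of 7 muscle markers 2.80 and 6.23, of 6 liver markers 3.31 and 2.67, of 6 Schwann cell and neural crest markers 21.2 and 21.9, and of 6 oligodendrocyte precursor markers 23.7 and 19.1. In the libraries used to look up direction the sides differed more: at E15.5 mesenchyme markers had 35.8 CPM in progenitors and 14.9 in neurons and oligodendrocyte precursor markers 38.5 and 15.4, and at E12.5 mesenchyme markers had 20.2 and 12, erythroid markers 23.3 and 10.8, epithelial markers 4.67 and 13.8 and Schwann cell and neural crest markers 14 and 24. Their part in the results was not tested.

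Promoters, counted from 1000 bp before to 100 bp after a TSS, were open more widely in progenitors. Of 21826 promoters, 9852 had a mean of at least 5 CPM over both sides. A total of 602 of these (6.11%) were at least 2-fold higher in progenitors and 67 (0.68%) at least 2-fold higher in neurons. A promoter could reach that mean through a high value on 1 side alone, so the counts per list below depend on the minimum. The median log2 ratio of all 9852 promoters was 0.20, so that the whole distribution was shifted to the progenitor side. With ratios centred on that median, 353 promoters were past 2-fold in progenitors and 153 in neurons, and the share of the calls on the progenitor side went from 90.0% to 69.8%. With the minimum set on the pooled CPM of the 213 nuclei, an alternative chosen after seeing the data, the counts were 438 and 108 and the share 80.2%. At the fold itself, the last promoter inside on the progenitor side was Rab3il1 with 14.3 and 7.12 CPM and the first outside was Pdlim5 with 12 and 5.99. On the neuron side Sema7a with 5.10 and 10.2 CPM was inside and Neurod2 with 5.10 and 10.1 was outside.

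**Figure D1:**
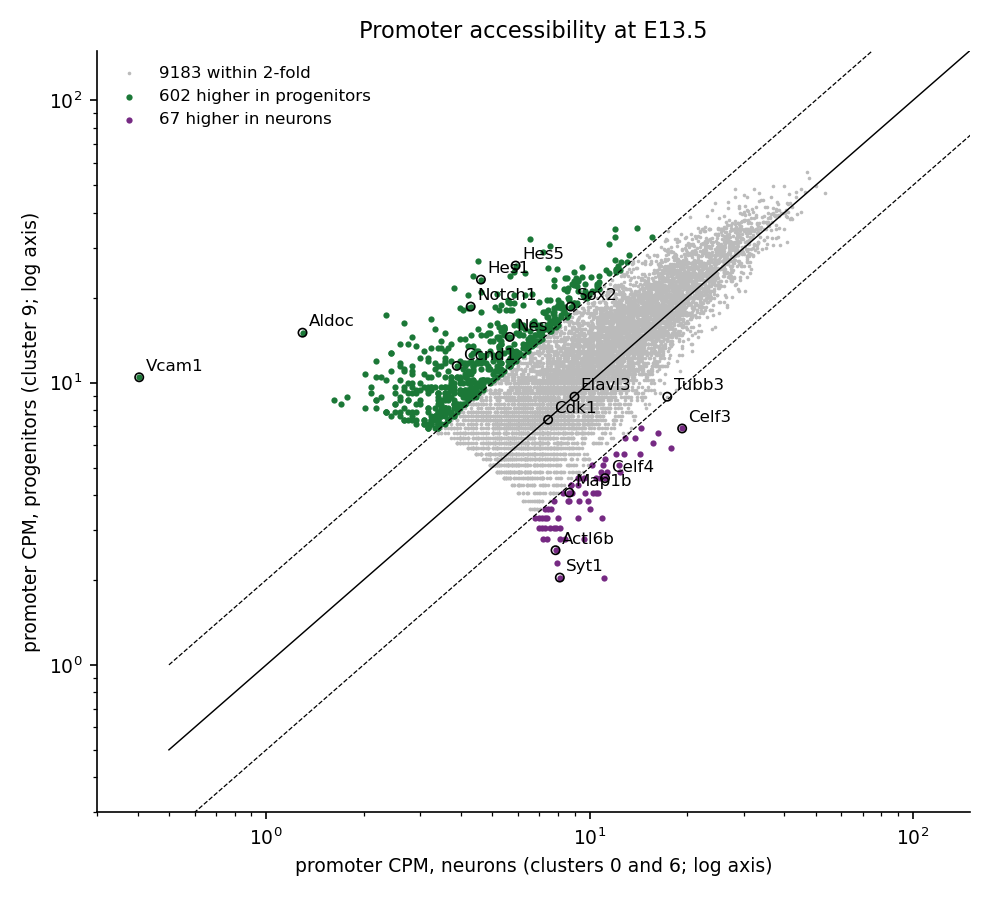
Promoter CPM of 9852 promoters at E13.5, neurons on the horizontal and progenitors on the vertical log axis, 1 point per promoter. The solid line is equality and the dashed lines are 2-fold; 602 promoters lie above the upper dashed line and 67 below the lower, with Vcam1 and Aldoc farthest out and Elavl3 on the diagonal.

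The 12 promoters with the firmest difference on the progenitor side, by the interval bound nearest to 1, were those of Vcam1, Aldoc, Adgrv1, Zfp36l1, S1pr1, Ephb4, Smad6, Dmrta2, Hes1, Sall3, Myh14 and Cacnb2. Vcam1, an adhesion molecule also carried by neural stem cells, had 10.4 CPM in progenitors, 0.156 in cluster 0 and 0.671 in cluster 6 (chr3:116128829-116129928), a ratio of 25.8 (95% interval 10.2 to 83.7). Fragments at this promoter came from 23 of 50 progenitor nuclei and from 5 of 163 neuron nuclei. Aldoc, a glycolytic enzyme typical of glia, had 15 CPM against 1.25 and 1.34, a ratio of 11.6 (95% interval 6.59 to 21.6). Both promoters were thus nearly closed in either neuron cluster.

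S1pr1, a receptor for the lipid sphingosine 1-phosphate, had 16.3 CPM in progenitors, 1.10 in cluster 0 and 4.36 in cluster 6. Zfp36l1, which promotes decay of messenger RNAs, had 27, 2.66 and 6.54 CPM. Dmrta2, a transcription factor of cortical progenitors, had 32.4, 3.29 and 10.1 CPM. In each of these 3, cluster 6 lay between the progenitors and cluster 0. Smad6, an inhibitor of BMP signalling, had a ratio of 5.48 (95% interval 3.88 to 7.81), and Adgrv1, an adhesion receptor, a ratio of 7.38 (95% interval 4.72 to 11.8). Ephb4, an ephrin receptor, had a ratio of 5.69 (95% interval 3.94 to 8.31).

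Transcription factors of progenitors lay on the progenitor side as a group. Of 19 listed, 16 passed the minimum, 11 of these were past 2-fold in progenitors and none in neurons, and their median log2 ratio was 1.12 against 0.20 for all promoters. With the minimum 2 times lower, 12 of 19 were past 2-fold in progenitors and none in neurons, beside 7.85% and 1.91% of all promoters. The list was written with earlier results of these data known. The SoxB factors had 12 against 2.19 CPM for Sox21, a ratio of 5.48 (95% interval 3.34 to 9.15), 12.7 against 2.43 for Sox3, a ratio of 5.25 (95% interval 3.27 to 8.55), and 18.1 against 5.75 for Sox1, a ratio of 3.15 (95% interval 2.23 to 4.44). Rfx4, a factor of the early neural tube, had 18.1 and 4.05 CPM, a ratio of 4.47 (95% interval 3.07 to 6.56). Gli3, a transcription factor of the hedgehog pathway, had 29.0 CPM in progenitors, 4.54 in cluster 0 and 10.1 in cluster 6. Hmga2, a chromatin protein of fetal stem cells, had 12.49, 1.72 and 7.71 CPM. Both had their lowest value in cluster 0 again. Pax6, a regulator of cortical and eye progenitors, reached only 1.6 (95% interval 1.16 to 2.18) at its promoter but 2.69 over the gene. Over genes, 15 of the 19 were past 1.5-fold in progenitors, where 9.7% of 14037 genes tested were.

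The Notch pathway was split by role. Among the receptors, Notch1 had 18.6 CPM in progenitors and 4.29 in neurons, a ratio of 4.34 (95% interval 3.0 to 6.30), and Notch3 had 8.92 and 2.59, a ratio of 3.44 (95% interval 2.07 to 5.75). Notch2 had 14.8 and 9.71 CPM at the promoter, a ratio of 1.52 (95% interval 1.09 to 2.10), and 2.37 over the gene. Of 5 targets that passed the minimum, 3 were past 2-fold, beside 6.11% of all promoters, and their median log2 ratio was 1.04 against 0.20 for all: Hes1 with 23.2 and 4.61 CPM (ratio 5.03), Hes5, given above, and Hey1 with 26.8 and 13 CPM (ratio 2.05). Nrarp, a feedback inhibitor of Notch, had a ratio of 1.92 (95% interval 1.4 to 2.60), and Hey2 one of 0.994 (95% interval 0.718 to 1.36). Over genes, 5 of 6 targets were past 1.5-fold in progenitors, beside 9.7% of all genes tested. Receptors and targets thus lay mostly on the progenitor side.

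The ligands lay on both sides. Jag1 had 22.4 CPM in progenitors and 9.71 in neurons, a ratio of 2.31 (95% interval 1.73 to 3.07), while Jag2 had 3.06 and 7.85, a ratio of 0.390 (95% interval 0.195 to 0.712). For Jag2, cluster 0 had 11 CPM and cluster 6 4.53. Dll1 stayed within the fold at 1.5 (95% interval 1.10 to 2.02), as did Dll3 at 0.717 (95% interval 0.405 to 1.21). Rbpj itself, the nuclear partner of all Notch receptors, had 25.5 and 21.6 CPM, a ratio of 1.18 (95% interval 0.928 to 1.49). Of the modifiers, Lfng, a sugar transferase that acts on the receptors, had 16.3 and 5.18 CPM, a ratio of 3.15 (95% interval 2.19 to 4.52). Numbl, an adaptor that antagonises Notch, had 15.3 and 20.5 CPM, a ratio of 0.747 (95% interval 0.554 to 0.993). In all, 3 of 9 promoters of the effector and modifiers were past 2-fold in progenitors, beside 6.11% of all promoters, with a median log2 ratio of 0.18 against 0.20.

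Radial glia genes had 4 of 6 tested promoters past 2-fold in progenitors, with a median log2 ratio of 1.34 against 0.20 for all promoters, and 11 of 15 over genes past 1.5-fold. Of all features tested, 6.11% of promoters and 9.7% of genes were. Fabp7, a fatty acid binding protein of radial glia, had 15 CPM in progenitors, 0.939 in cluster 0 and 6.37 in cluster 6, a ratio of 4.22 (95% interval 2.81 to 6.39). Vim, an intermediate filament, had 22.9, 7.35 and 11.2 CPM, a ratio of 2.49 (95% interval 1.86 to 3.31). Ptprz1, a receptor phosphatase, stayed within the fold at 1.44 (95% interval 1.01 to 2.01), and so did the cadherin Cdh2 at 1.46 (95% interval 0.973 to 2.16).

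Most promoters of the cell cycle machinery had similar values on both sides. Of 17 tested, 15 were within 2-fold and 2 were past it in progenitors, where 6.11% of all promoters were. Their median log2 ratio was 0.26 against 0.20 for all promoters. The exceptions were the G1 cyclins: Ccnd1 had 11.5 and 3.88 CPM, a ratio of 2.95 (95% interval 1.92 to 4.53), and Ccnd2 had 21.4 and 8.34, a ratio of 2.57 (95% interval 1.90 to 3.46). Ccna2 had 28.8 and 20.5 CPM, a ratio of 1.41 (95% interval 1.12 to 1.76), and Birc5, a mitotic inhibitor of cell death, 22.4 and 17.7, a ratio of 1.27 (95% interval 0.976 to 1.63). Over genes, 5 of 18 of the cell cycle list were past 1.5-fold in progenitors, beside 9.7% of all genes, and none in neurons. Their median log2 ratio over genes was 0.37 against 0.06 for all. Of 13 distal bins nearest to them, 8 were past 2-fold in progenitors, beside 38.5% of all bins. All 8 tested promoters of genes that mark or promote cell cycle exit were within the fold, as were 9183 of all 9852 promoters tested. Among them were Cdkn2d at 1.52 (95% interval 1.23 to 1.87) and Btg1 at 1.16 (95% interval 0.932 to 1.44).

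Proneural genes separated the progenitors from cluster 0 more than from cluster 6. Of 4 tested promoters, 3 were past 2-fold over the pooled neurons, beside 6.11% of all promoters. Over all 11 listed, including those under the minimum, 7 promoters had a ratio above 1 and 4 below. Neurog2 had 20.4 CPM in progenitors, 1.88 in cluster 0 and 17.8 in cluster 6, so that its ratio was 10.9 over cluster 0 but 1.15 over cluster 6. Neurog1 had 14, 2.19 and 8.72 CPM. Olig2 had 7.39, 2.19 and 3.69 CPM, a pooled ratio of 2.54 (95% interval 1.5 to 4.25).

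The neuron side had fewer and lower promoters. Its 12 firmest were March11, Sgip1, Syt1, Celf3, BC051142, Gdap1l1, Amph, Mfap4, Camkk1, Eml2, Cacna1c and Grik3. March11, a ubiquitin ligase, had 2.04 CPM in progenitors, 11.3 in cluster 0 and 10.9 in cluster 6, so that neurons were higher by a factor of 5.44 (95% interval 2.68 to 12.9). Sgip1, an endocytic protein of synapses, had 5.86, 16.6 and 19.3 CPM, a factor of 3.05 (95% interval 1.98 to 4.91). Syt1, the calcium sensor of transmitter release, had 2.04, 8.29 and 7.88 CPM, a factor of 3.97 (95% interval 1.94 to 9.45). Both neuron clusters lay above the progenitors at all 3.

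Celf3, an RNA-binding splicing regulator, had 6.88, 16.4 and 22.5 CPM. Amph, an endocytic protein of nerve terminals, had 2.29 and 7.93 CPM, Cacna1c, a subunit of L-type calcium channels, 3.57 and 10.0, and Grik3, a kainate receptor for glutamate, 2.80 and 8.42. Mfap4, a matrix protein, had 6.12 CPM in progenitors, 8.13 in cluster 0 and 23.8 in cluster 6. From the listed genes, Actl6b, the subunit that neurons place in their BAF chromatin remodelling complex, had 2.55 and 7.85 CPM, a factor of 3.08 (95% interval 1.61 to 6.63) in neurons. Its progenitor counterpart Actl6a stayed at a ratio of 1.18 (95% interval 0.961 to 1.44). Rest, the repressor of neuronal genes, was on the progenitor side with 18.3 and 8.17 CPM, a ratio of 2.24 (95% interval 1.64 to 3.07).

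Few promoters of the neuronal gene groups were past 2-fold in neurons, and few of all promoters tested were, at 0.68%. None of 16 tested promoters of early neuron factors was past it, and 1 of 14 cytoskeleton and RNA-binding genes was (Map1b at 4.08 and 8.66 CPM), 1 of 15 synapse and vesicle genes (Syt1) and 2 of 11 voltage-gated channel genes (Scn3b at 3.82 and 9.87 CPM, Cacna1b at 4.08 and 10.6). The median log2 promoter ratios of these groups were -0.20, 0.02, 0.03 and -0.29, against 0.20 for all promoters. Sox11 at 1.18 (95% interval 0.952 to 1.47), Mapt at 1.38 (95% interval 1.07 to 1.77) and Dlg4, a scaffold of excitatory synapses, at 1.10 (95% interval 0.875 to 1.38) were open on both sides. Celf4, a splicing factor, was past the fold in neurons with 4.59 and 11.2 CPM, while Ptbp1, the repressor of neuronal splicing, had a ratio of 0.983 (95% interval 0.790 to 1.22).

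Several neuronal promoters that were low in progenitors were under the minimum. They are named here after their values were seen. Myt1l, a factor that represses other cell fates in neurons (chr12:29527384-29528483), had 2 fragments in progenitors, which is 0.510 CPM, against 116 fragments or 9.39 CPM in neurons, with 9.54 CPM in cluster 0 and 9.22 in cluster 6. Its ratio of 0.0543 rests on those 2 fragments and has a 95% interval of 0.00650 to 0.201. Ina, a neuronal intermediate filament, had 1.78 and 6.80 CPM, and Kif5a, a kinesin of axonal transport, 1.53 and 5.58. With the minimum set 2 times lower, 959 promoters were past 2-fold in progenitors and 234 in neurons, of 12220. The neuron count then was 5 of 17 for channels, 3 of 18 for cytoskeleton and RNA-binding genes, 3 of 20 for synapse and vesicle genes and 3 of 20 for early neuron factors, beside 1.91% of all promoters at that minimum.

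The pooled neuron side held a pair of unlike clusters. Neurod2, a factor of excitatory cortical neurons, had 2.35 CPM at its promoter in cluster 0 and 18.4 in cluster 6, against 5.10 in progenitors. Neurod1 had 2.82, 18.1 and 7.13 CPM in the same order, and Nhlh1, a factor of newborn neurons, 2.19, 14.9 and 1.27. The vesicular GABA transporter Slc32a1 had 13 CPM in cluster 0, 0.503 in cluster 6 and 2.29 in progenitors, and Dlx5, a factor of inhibitory neurons, 11.3, 2.18 and 1.53. Each of these 5 was thus open mainly in 1 of the neuron clusters, and they were named after their values were seen. Of the 602 promoters on the progenitor side, 563 were past 2-fold over cluster 0, 383 over cluster 6 and 344 over both. Of the 67 on the neuron side, 45 were past it in cluster 0, 53 in cluster 6 and 31 in both.

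Counted over whole genes, at a lower fold than promoters, the neuron side held a larger share of the features tested. Of 14037 genes with a mean of at least 10 CPM, 1362 (9.7%) were at least 1.5-fold higher in progenitors and 911 (6.49%) in neurons. The median log2 ratio was 0.06, and centring on it gave 1082 and 1152. At 2-fold, the fold used for promoters, 286 and 154 genes were past it. The counts of genes and of promoters, in all and per list, are therefore not directly comparable. Of 20 cytoskeleton and RNA-binding genes tested, 10 were past 1.5-fold in neurons and none in progenitors, with a median log2 ratio of -0.56. The same held for 7 of 16 channel genes, 5 of 20 early neuron factors and 3 of 18 synapse and vesicle genes. Rbfox3, the neuronal marker NeuN, had 312 CPM in progenitors and 557 in neurons over its gene, against 5.61 and 5.42 at the promoter. Plxna4, a semaphorin receptor, had 120.0 and 329 CPM over its gene and Ebf1, a factor of neuronal differentiation, 145 and 288, while their promoters stayed within the fold at ratios of 0.727 and 0.747. These 3 were named after their values were seen. Among the genes tested by both counts, 308 were past 1.5-fold in neurons over the gene with a promoter within 2-fold. Another 28 were past 1.5-fold over the gene and 2-fold at the promoter. As these folds differ, a gene among the 308 can have a similar ratio by both counts.

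The side on which a gene lay moved with its length. Of 2082 genes of up to 10 kb, 15.47% were past 1.5-fold in progenitors and 3.89% in neurons. Among 340 genes of 300 to 500 kb the shares were 4.41% and 13.8%. The median log2 ratio of genes went from 0.16 to -0.15 over these classes, while that of their promoters went from 0.20 to 0.28. The part of gene length, and of the higher TSS share of the progenitors, in the counts per list was not tested.

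Distal bins, of 1 kb and more than 1 kb from every annotated TSS, had the largest share past the fold on the progenitor side. Of 3799 bins with a mean of at least 5 CPM, 1462 (38.5%) were at least 2-fold higher in progenitors and 95 (2.5%) in neurons. The median log2 ratio was 0.70. Centred on it, 743 and 392 bins were past the fold, so that the progenitor share of the calls went from 93.9% to 65.5%. A bin could reach the mean minimum through a high value on 1 side alone. With the minimum on the pooled CPM, 608 and 223 of 2882 bins were past the fold, and the progenitor share of the calls was 73.2%. By position, 48.0% of the progenitor bins lay in introns and 45.3% between genes, and of the neuron bins 42.1% and 50.5%. Of the progenitor bins 1033 were past 2-fold over both neuron clusters, and of the neuron bins 33 were past it in both clusters, with 51 in cluster 6 alone.

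The leading progenitor bins were nearly silent in neurons. The Inhbb bin (chr1:119255001-119256000, between genes) had 50 fragments from 20 progenitor nuclei, which is 12.7 CPM, and 4 fragments or 0.324 CPM in neurons, a ratio of 39.4 (95% interval 14.4 to 150.1). The Vangl2 bin (chr1:171980001-171981000, between genes) had 18.1 and 0.647 CPM, and the Pdcd4 bin (chr19:53834001-53835000, in an intron of Rbm20) 15 and 0.486. The bins nearest to Id4, Wdr95 and Arhgef16 had ratios of 30.4, 26.8 and 28.3. All 6 had under 1 CPM in the pooled neurons. At E12.5 the ratio of the Inhbb bin was 1.30 and that of the Arhgef16 bin 0.432, while at E15.5 they were 27.8 and 15.

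Bins nearest to genes of several of the groups above were mostly on the progenitor side. Progenitor bins were spread widely, with 921 different nearest genes for 1462 bins. Bins are assigned to the nearest protein-coding TSS, and the genes named were chosen after their counts were seen. A bin could be tested through its progenitor value alone, so these counts depend on the minimum. Notch1 had all 7 of its tested bins on the progenitor side, Hes5 6 of 6, Prdm16 6 of 6, Hes1, Nrarp and Fgfr3 each 5 of 5, Sox2 7 of 8 and Sox9 11 of 14. Genes outside the lists had such counts too, among them Gse1 with 9 of 27, Rhbg with 8 of 11 and Rufy4 with 6 of 6. Over the lists, 57 of 72 bins nearest to progenitor transcription factors, 18 of 20 nearest to Notch targets, 10 of 10 nearest to Notch receptors and 9 of 10 nearest to radial glia genes were past 2-fold in progenitors, beside 38.5% of all bins. Of 7 bins nearest to Notch ligands 1 was, and of 13 nearest to cytoskeleton and RNA-binding genes none was. Proneural genes had 11 of 15.

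The leading neuron bins had 1.78 to 3.06 CPM in progenitors. A bin had to reach a mean of 5 CPM over both sides, and the part of that minimum in the level left in progenitors was not tested. The Chd5 bin (chr4:152350001-152351000, in an intron of Chd5, a chromatin remodeller of neurons) had 1.78 CPM in progenitors, 10.2 in cluster 0 and 8.05 in cluster 6, higher in neurons by a factor of 5.13 (95% interval 2.41 to 13). The T2 bin (chr17:8368001-8369000, in an intron of T2 and of AC164431.1) had 3.06, 12.51 and 14.3 CPM. The Itprid1 bin had no fragment in cluster 0 and 18.4 CPM in cluster 6, so that its place on the neuron side came from cluster 6 alone. The bins nearest to Elfn2 and Ccdc33 were also highest in cluster 6, with 15.6 and 14.4 CPM against 5.63 and 5.16 in cluster 0. The Ccdc33 bin was on the other side in both other libraries, with ratios of 1.94 at E12.5 and 1.36 at E15.5.

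Motif words were counted in the 300 bases with most fragment ends of each bin, on both strands, for 15 words, not all of which are given. Of the 95 neuron bins, 51 were past the fold in cluster 6 alone. The E-box CAGATG occurred in 42.1% of the neuron windows, 20.9% of the progenitor windows and 24.2% of all tested windows. The E-box CAGCTG occurred in 36.8%, 25.5% and 27.3%. The Sox word ACAATG went the other way, with 7.37% of neuron windows, 17.7% of progenitor windows and 14.2% of all. Its neuron share rests on 7 windows. With the minimum 2 times lower, ACAATG was in 10.8% of neuron windows, 16.5% of progenitor windows and 13.6% of all, a smaller difference. The Sox word ACAAAG was in 24.2%, 27.8% and 25.4% at the main minimum. The word TTGGCA of the NFI site was in 18.9%, 25.9% and 21.1%, and TAATTA in 12.6%, 15.4% and 11.8%. GTGGGAA, the Rbpj core, was in 7.37%, 8.89% and 8.21%. GGACAGC, part of the REST site, was in 2.11%, 6.77% and 7.24%, and ATGCAAAT of POU factors in 8.42%, 4.86% and 4.24%. These 2 words were in 2 and 8 neuron windows. With the minimum 2 times lower, they were in 6.57% and 4.56% of neuron windows and in 7.89% and 3.09% of all. Median GC content was 56.0% in neuron windows and 54.0% in progenitor windows.

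The Rfx word seen in both neuron windows shown was in 14.7% of the 95 neuron windows and in 7.08% of all tested windows. With the minimum 2 times lower it was in 7.48% of 1096 neuron windows and in 6.08% of all 18482, while CAGATG stayed at 45.2% against 26.3%. In promoters, which were counted over their whole window, CAGCTG was in 55.2% of the 67 neuron promoters, 40.4% of the progenitor promoters and 39.6% of all, CAGATG in 50.7%, 38.5% and 40.3%, and GTTGCCA in 11.9%, 11.1% and 11.5%. GTGGGAA was in 28.4%, 24.8% and 20.3%. The order of ACAATG in promoters was the reverse of that in bins, with 34.3% of neuron promoters, 27.6% of progenitor promoters and 28.2% of all. A low content of CpG, under 0.4 of that expected from the C and G content, was found in 22.4% of neuron promoters, 11.8% of progenitor promoters and 5.38% of all tested.

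**Figure D2:**
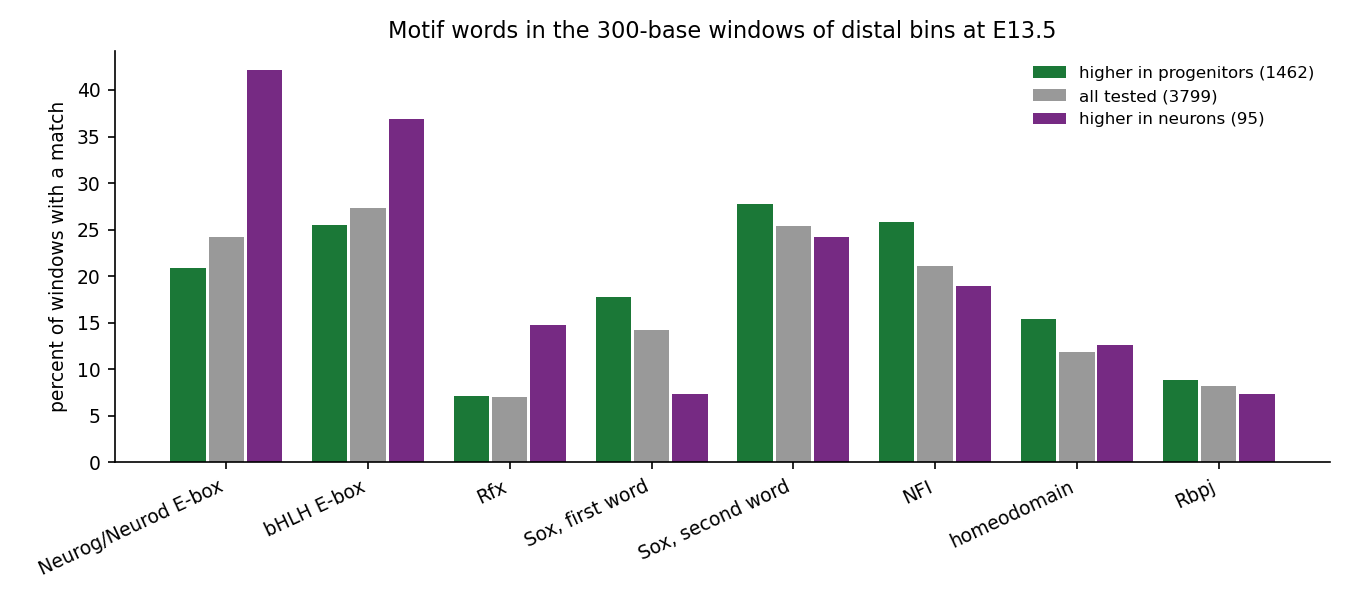
Share of 300-base windows of distal bins with a match to each motif word on either strand, at E13.5; bars start at 0, green for 1462 bins higher in progenitors, grey for all 3799 tested and purple for 95 higher in neurons. The Neurog/Neurod E-box bar is tallest for neurons (42.1%), and the first Sox word is lower there (7.37%, 7 windows) than in the other sets.

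Direction was then looked up in the other libraries, whose fragments played no part in choosing the promoters, genes or bins, although their nuclei carry cluster numbers from the same table. Of the 602 progenitor promoters, 74.6% had a ratio above 1 at E12.5 and 89.0% at E15.5, where 50.6% and 58.8% of all tested promoters did. Of the 67 neuron promoters, 67.2% were below 1 at E12.5 and 77.6% at E15.5, against 49.4% and 41.2%. For distal bins the shares were 78.6% and 94.7% of those on the progenitor side (61.1% and 72.9% of all) and 75.8% and 73.7% of those on the neuron side (38.9% and 27.1%). For genes they were 67.3% and 75.6% (51.7% and 50.2%) and 61.4% and 72.6% (48.3% and 49.8%). The direction at E13.5 was thus met more often than in all features at both stages and on both sides. The cluster numbers may rest on the accessibility of these nuclei too, so the look-up is a description and not an independent check. At E12.5 the median promoter on the progenitor side rested on 9 progenitor and 7 neuron fragments, which is too few to place single promoters.

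**Figure D3:**
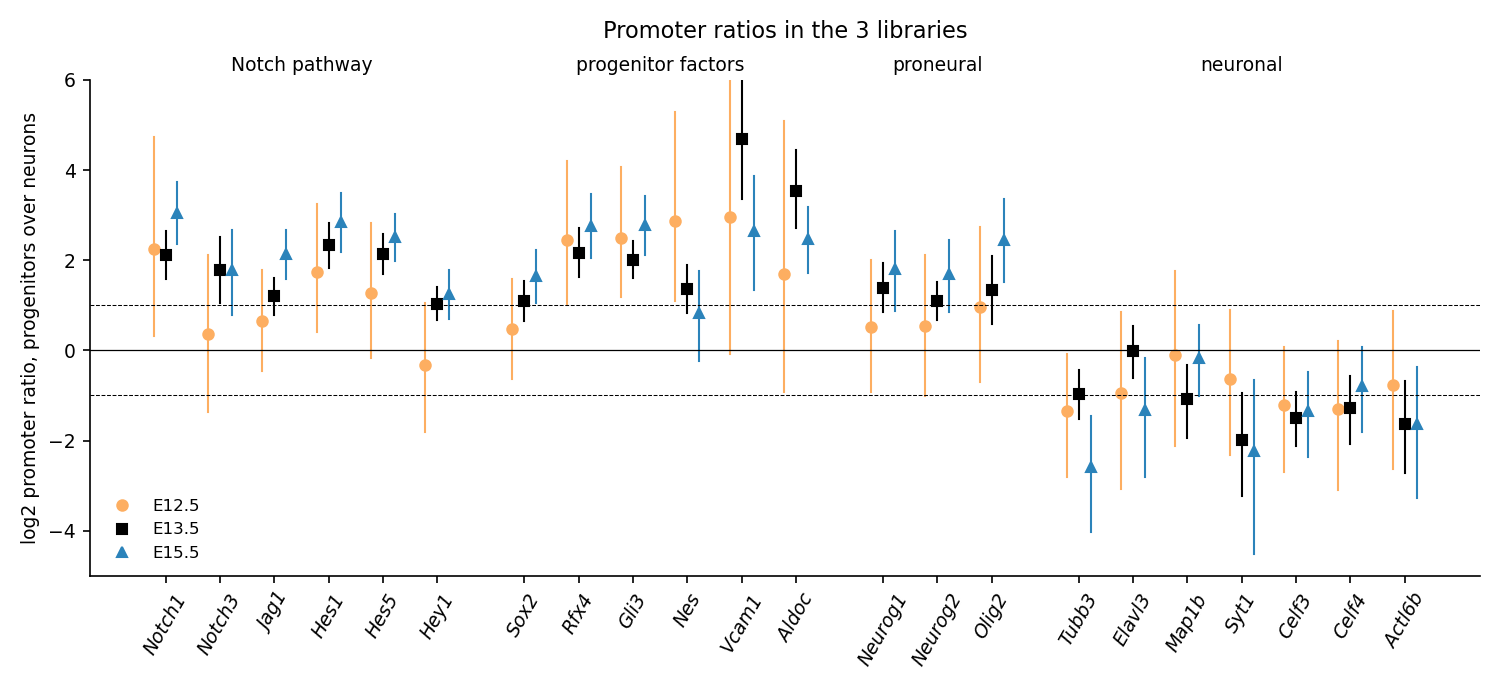
Log2 ratio of promoter CPM, progenitors over neurons, for named genes in the E12.5 (circles), E13.5 (squares) and E15.5 (triangles) libraries; bars are 95% counting intervals, drawn up to the edges of the axis, and dashed lines are 2-fold. The points of Notch1, Hes1 and Hes5 lie above 0 in all 3 libraries and those of Tubb3, Syt1 and Celf3 below, while the E12.5 intervals of Hes5, Syt1 and Celf3 include 0.

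Among single genes, Hes1 had 14 and 4.2 CPM in progenitors and neurons at E12.5 and 24.3 and 3.37 at E15.5. Hes5 had 10.1 and 4.2 at E12.5 and 34.4 and 6.00 at E15.5, and Notch1 had 8.56 and 1.80, then 22.9 and 2.76. Rfx4 had ratios of 5.44 and 6.82, Gli3 of 5.61 and 6.87, and Vcam1 of 7.77 and 6.25. The ratios of these 6 were above 1 at all stages. At E12.5 they rest on few fragments. The E12.5 interval of Hes5 included 1, and those of the other genes are not given in numbers. Tubb3 had 5.45 and 13.8 CPM at E12.5 and 4.05 and 24.3 at E15.5, a ratio of 0.167 there, farther from 1 than the 0.513 at E13.5. Elavl3, equal at E13.5, had 4.05 and 10.2 CPM at E15.5, and Stmn2 0.675 and 5.33. Myt1l had 1.56 and 10.2 CPM at E12.5 and 0.675 and 13.4 at E15.5. For Hey1 the ratio was 0.797 at E12.5, with an interval of 0.286 to 2.07, and 2.39 at E15.5.

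**Figure D4:**
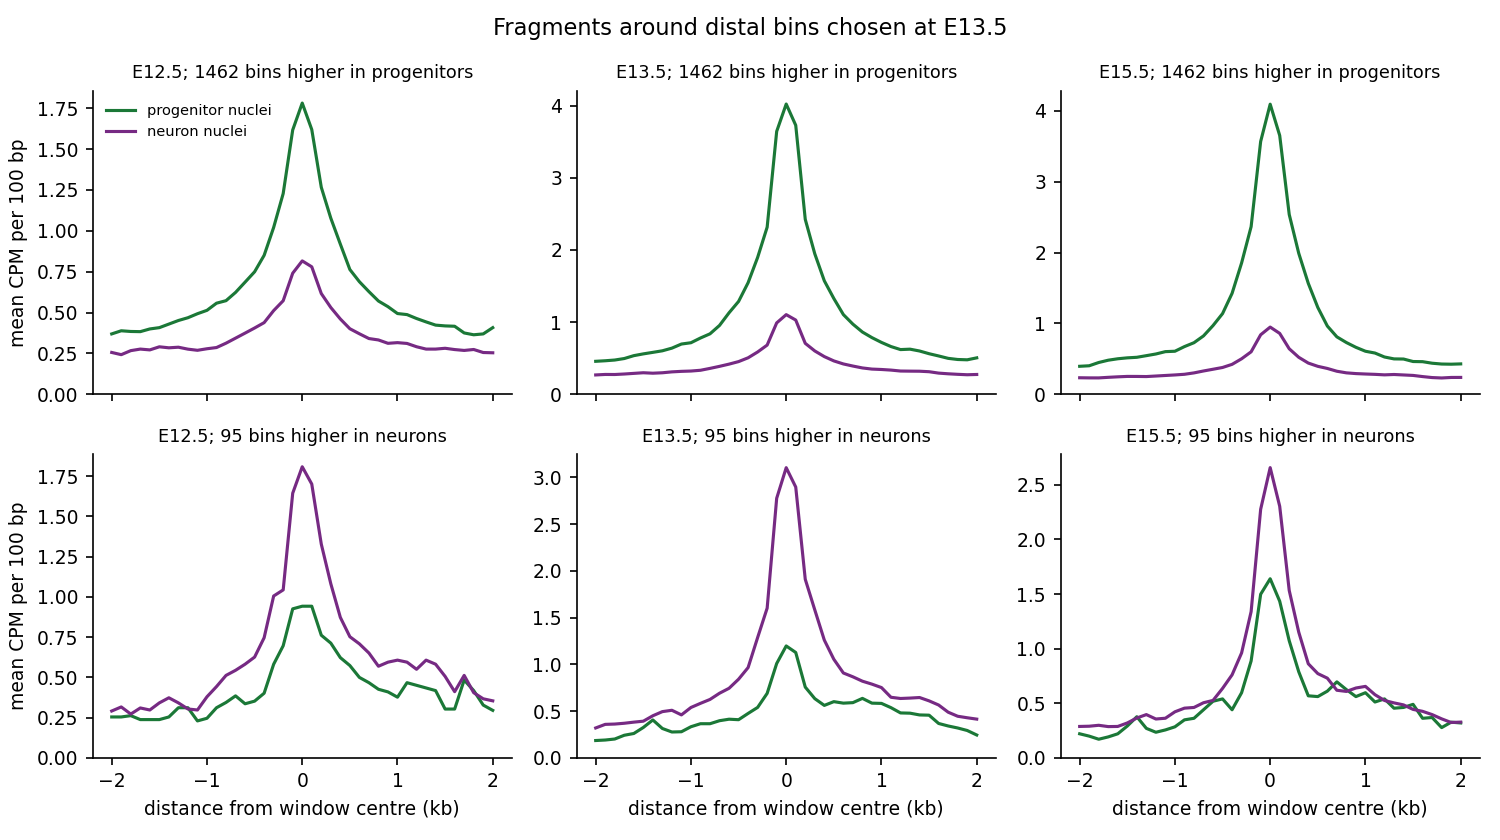
Mean CPM per 100 bp of progenitor (green) and neuron (purple) nuclei against the distance in kb from the centre of the window, for 1462 bins higher in progenitors (top) and 95 higher in neurons (bottom) at E13.5; the y axes start at 0 and differ between panels. At the centre of the progenitor bins the E15.5 progenitors reach 4.09 and the E15.5 neurons 0.948, and at E12.5 the values are 1.78 and 0.816.

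Around the centres of the progenitor bins, progenitors had 4.02 CPM per 100 bp and neurons 1.10 at E13.5, 4.09 and 0.948 at E15.5, and 1.78 and 0.816 at E12.5. At the centres of the neuron bins the values were 1.20 and 3.10 at E13.5, 1.64 and 2.66 at E15.5, and 0.942 and 1.81 at E12.5. The E12.5 library had the fewest progenitor and neuron fragments, 1285439 and 1665191, from 11 and 16 nuclei. Its median per nucleus was the highest, at 110406 and 102206. Its share of progenitor fragments at TSSs was 20.6%, the lowest of the 3 libraries.

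**Figure D5:**
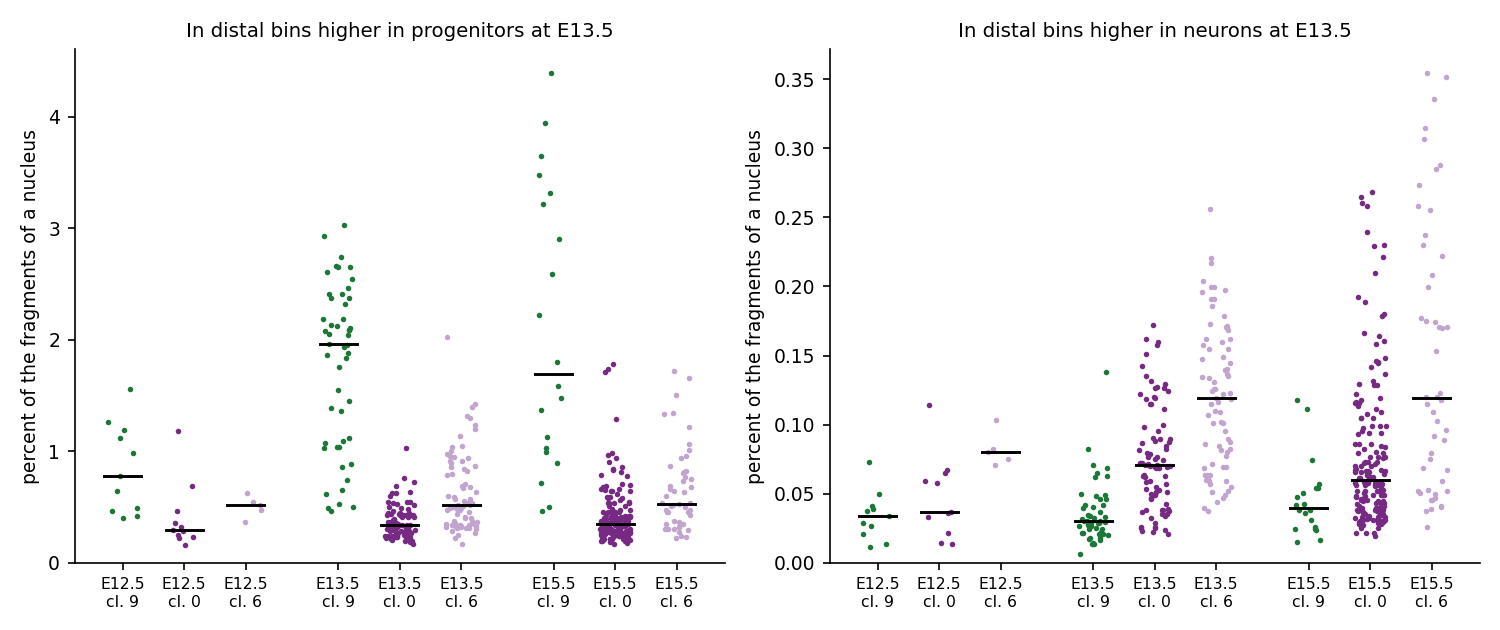
Percent of each nucleus's fragments in distal bins higher in progenitors (left) or in neurons (right) at E13.5, by library and cluster; each point is a nucleus and the black line is the median. At E13.5 cluster 9 has a median of 1.96% on the left against 0.335% and 0.518% for clusters 0 and 6, and the ranges overlap.

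Single nuclei overlapped. In progenitor bins, the E13.5 nuclei of cluster 9 had 0.464% to 3.03% of their fragments, with a median of 1.96%. Nuclei of cluster 0 had 0.164% to 1.03% with a median of 0.335%, and nuclei of cluster 6 had 0.166% to 2.03% with a median of 0.518%. The highest neuron nucleus lay above 26 of the 50 progenitor nuclei, and without that 1 nucleus, which was in cluster 6, the next, at 1.43%, lay above 17. The bins were chosen from these nuclei. The E15.5 fragments were not used to choose the bins, although its nuclei carry the same set of cluster numbers. There cluster 9 had a median of 1.69% over 20 nuclei, cluster 0 0.344% over 172 and cluster 6 0.531% over 50. At E12.5 the medians were 0.774%, 0.291% and 0.520% over 11, 11 and 5 nuclei. In all 3 libraries the median of cluster 6 lay between the progenitors and cluster 0. Cluster 6 also had the highest median in neuron bins in each library. At E13.5 that median was 0.119%, against 0.0705% in cluster 0 and 0.0299% in cluster 9. By the authors' table, 25.9% of E13.5 fragments lay in peaks in cluster 9, 24.3% in cluster 6 and 19.7% in cluster 0. The order was the same at E15.5, but at E12.5 cluster 6 was highest with 16.5%. The part of this general signal in the medians was not tested.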

How the data were processed

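The authors deposited, per library, fragments made with Cell Ranger ATAC 2.0.0 against mm10, and a table with cluster numbers and fragment counts per nucleus; Seurat 4.1.0 and Signac 1.6.0 are named in the submitters' processing notes. The study's methods describe an integration of nuclei with spatial profiles, but not whether these cluster numbers came from it. Another 18 columns were left aside. Unique fragments on chromosomes 1 to 19, X and Y were summed over the nuclei of a side (E13.5, cluster 9 against clusters 0 and 6) and counted where they overlapped a feature of GENCODE vM21. One TSS per protein-coding gene was used, that with most fragments over all E13.5 nuclei. Genes included 2 kb upstream; 90 Pcdh and Ugt genes and 228 of over 500 kb were left out. Ratios of CPM have exact conditional (Clopper-Pearson) intervals. Values past 2-fold (genes: 1.5-fold) are described without a test. Overlapping genes share fragments, and ATAC-seq has no strand. The calculation was tested on simulated counts. Python 3.11.15, numpy 2.4.6, scipy 1.17.1, pandas 2.3.3 and matplotlib 3.10.9 were used. Members, gene lists and motif words were chosen with earlier results of these data known. Named were the 12 promoters and 6 bins per side whose interval bound nearest to 1 was farthest from 1, up to 6 members of each list past the fold and up to 3 others with the highest mean CPM, and the 6 markers. A few items that the naming rule gives are not reported here. Alternatives varied the minimum, scaling, neuron side, nuclei, counting window and fold.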

Additional observations from a re-analysis of the deposited data

Results flagged for a closer look

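The following promoters had a 95% counting interval above 1 in one library and below 1 in another; the difference between the libraries was not tested, and each library is 1 sample. Mfap4, among the leading promoters of the neuron side at E13.5 with a ratio of 0.390, had 28.3 CPM in progenitors and 7.42 in neurons at E15.5, a ratio of 3.82 with an interval of 2.61 to 5.50, while at E12.5 its ratio was 0.177. Mapt, which encodes the microtubule protein tau, had a ratio of 1.38 at E13.5 and 0.648 at E15.5. Gadd45g, induced in cells that leave the cycle, had a ratio of 1.35 at E13.5 and 0.486 at E12.5. Kdm1a, a histone demethylase that works with Rest, had a ratio of 0.603 at E13.5 and 2.83 at E12.5. Both comparisons at E12.5 rest on 11 progenitor and 16 neuron nuclei.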

How the results depend on the processing

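Counts past the fold depended on the settings, and they are given as progenitor and neuron side in that order. The main counts were 602 and 67 of 9852 promoters, 1362 and 911 of 14037 genes, and 1462 and 95 of 3799 bins. The number tested moved with several settings too, so the counts are not shares of the same total. Counts not listed moved less than those listed. A minimum 2 times lower gave 959 and 234 of 12220 promoters and 6338 and 1096 of 18482 bins. A minimum 2 times higher gave 205 and 6 of 5525 promoters, 876 and 498 of 10047 genes, and 173 and 2 of 519 bins. With no minimum but at least 1 fragment on each side, there were 2368 and 1202 of 17905 promoters and 2643 and 2765 of 20390 genes. Bins then were 380372 and 129887 of 1154438. As the neurons had more fragments in total, a feature with 1 fragment on each side counted as past the fold in progenitors. These counts therefore cannot compare the sides. Centring gave 353 and 153 promoters and 743 and 392 bins. The minimum on the pooled CPM, chosen after seeing the data, gave 108 neuron promoters, and 608 and 223 bins. Cluster 0 alone as neurons gave 1014 and 101 promoters, and cluster 6 alone 143 neuron promoters and 576 neuron bins. A fold of 3 gave 138 and 8 promoters and 840 and 18 bins, and a fold of 2 gave 286 and 154 genes. Means over nuclei gave 186 neuron promoters and 186 neuron bins. Without the deepest 10% of nuclei there were 129 neuron promoters. Counting fragment ends gave 937 and 214 of 11921 promoters and 5280 and 853 of 14808 bins. A fragment has up to 2 ends in a feature and the minimum was left as it was, so more features passed it. With each nucleus thinned to 10000 fragments there were 1371 and 937 promoters, 2239 and 2208 genes, and 3215 and 294 bins. A window of 1000 bp on either side of the TSS gave 119 neuron promoters, and bins over 5 kb from every TSS 62 of 2542 on the neuron side. Bins of 500 bp, taken with a minimum 2 times lower, gave 4768 and 542 of 12263. The cause was not tested.

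Of 1621 values of 138 named features under the alternatives, 1511 moved by less than their counting interval, 109 moved by more and 1 changed sign: the Itprid1 bin, at a log2 ratio of -2.13, had 2.12 with cluster 0 alone, computed against a floor of 3 fragments because cluster 0 had none. When centred, 67.8% of the progenitor bins kept their direction at E12.5 and 84.5% at E15.5, and 88.4% of the neuron bins at E15.5. Keeping 1 barcode per linked group or nuclei of at least 10000 fragments removed none of the 213 nuclei. The values of named features under these settings could therefore not move, and they are counted among the 1511. No paired analysis was possible because each stage has 1 library, and no replicate could be left out. With 11 and 16 nuclei at E12.5, bins on the progenitor side had a median of 6 and 3 fragments there.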

Other observations

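Patterning genes of the neural tube were described as well, although a nucleus cannot be traced to a region. Of 5 tested promoters of forebrain and midbrain patterning genes, 3 were past 2-fold in progenitors, beside 6.11% of all promoters. Over all 15 listed, including those under the minimum, 7 promoters had a ratio above 1 and 8 below. Emx1, a factor of the dorsal forebrain, had 11.7 CPM in progenitors, 2.19 in cluster 0 and 6.04 in cluster 6, Emx2 had 17.8, 5.01 and 11.9, and Otx1 had 22.9, 4.54 and 13.7. All 3 were lowest in cluster 0. None of 16 Hox and other hindbrain and spinal cord genes reached the minimum at its promoter, and their summed promoters had 22.9 CPM in progenitors and 23.5 in neurons. None of 18 dorsoventral genes reached it either, with sums of 43.6 and 30.3 CPM.

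Fezf2, a factor of deep cortical layers that progenitors also use, was past the fold in progenitors with 14.8 CPM against 1.25 in cluster 0 and 8.55 in cluster 6. Tlx3, a factor of sensory neurons, had 9.94 and 2.99 CPM at E13.5 but ratios of 0.399 at E12.5 and 0.678 at E15.5. Prph, a filament of peripheral neurons, had 9.43 and 2.67 CPM, from 15 of 50 progenitor nuclei, and a ratio of 0.962 at E15.5. Dpf3, a BAF subunit listed with the neuronal complex, lay on the progenitor side with 9.43 and 4.45 CPM. Of 15 axon guidance promoters, 1 was past 2-fold in neurons, Unc5a with 5.61 and 12.8 CPM, and 1 in progenitors, Sema3a with 7.13 and 3.24, where 0.68% and 6.11% of all promoters were.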
